A study of Mus musculus with 2 samples.

Results

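Desmosomes are junctions that rivet epithelial cells to each other and anchor their keratin filaments. The 10 genes described here encode their core parts and related plakins: the desmosomal cadherins Dsg2 and Dsc2, the armadillo proteins Jup, Pkp1, Pkp2, Pkp3 and Pkp4, and the plakins Dsp, Ppl and Evpl. They were taken by gene symbol, and all 10 were found among 22072 symbols. They were measured in 2 RNA-seq libraries of sorted adult mouse lung cells (negative for lineage markers, CD326-positive, CD24-intermediate), a sort meant to enrich secretory airway cells without cilia. The control mice carried tetOCre with Mst1-flx/flx and Mst2-flx/flx alleles. The mice labelled Mst1/2 CKO had these and also Scgb1a1-rtTA, a transactivator under the club cell promoter of Scgb1a1. Through it doxycycline activates tetOCre. All mice ate doxycycline food (625 mg/kg) for 16 days, and each library came from RNA pooled from 4 mice of 1 genotype.

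Floxed Mst1 and Mst2 and the Cre transgene were thus shared, and the transactivator, active Cre and the intended deletion cannot be told apart. With 1 library per genotype no difference has a replicate check, and no p-value is given. Mst1 and Mst2 are the Hippo pathway kinases listed as Stk4 and Stk3. Stk4 had FPKM (fragments scaled by transcript length and by all mapped fragments) of 5.38 in control and 4.71 in the other library, and Stk3 had 7.28 and 7.09. The sources used here do not give the deleted exons, so these levels are no check of the genotype, and the second library is named by its label, the CKO library. Of the sort antigens, Epcam (CD326) was at 28.2 and 31.0 and Cd24a at 127 and 116. Among markers of club cells, the cells aimed at, Cyp2f2 was at 4694 and 5305 and Aldh1a1 at 594 and 463. Scgb3a1, Scgb3a2 and Chad were lower in CKO by 3.95-fold, 2.70-fold and 3.49-fold, with levels given with the other markers. Scgb1a1, the most abundant club cell product, was listed at 0 in both libraries with a status marking too many reads to estimate, so it could not be measured. The alveolar type 2 cell gene Sftpc was higher than Cyp2f2, at 7888 and 10270, although the sort aimed at airway cells. How it compares with Scgb1a1 is not known. About 8770000 and 8340000 reads were estimated on listed transcripts from their coverage, an estimate in which Scgb1a1 counts as 0.

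In a desmosome, desmogleins and desmocollins cross the membrane and bind those of the neighbouring cell. Inside, plakoglobin (Jup) and the plakophilins bind the cadherin tails and desmoplakin (Dsp), whose other end holds keratin. Simple epithelia such as that of the distal lung are known for Dsg2 and Dsc2, and stratified epithelia add other desmogleins and desmocollins. Periplakin (Ppl) and envoplakin (Evpl) are plakins that also join keratin to the cell border and become part of the cornified envelope of skin.

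The sequences shown first are an exon of Pkp4 and promoter windows of Jup, Dsp and Pkp4. Whether the promoter windows bear on the values below was not tested. Pkp4 had 2 listed transcripts that shifted against each other. The longer, NM_026361, holds an extra exon of 129 bases (chr2:59350494-59350622, plus strand, GRCm38, GENCODE M21), number 20 of its 22. The exon is wholly coding and adds 43 codons in frame.
Pkp4 exon 20: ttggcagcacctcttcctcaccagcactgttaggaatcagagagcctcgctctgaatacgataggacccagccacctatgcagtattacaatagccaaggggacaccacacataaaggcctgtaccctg
This stretch is not in the shorter transcript, NM_175464. The exon was matched by transcript name, since the deposited tables use the older mm9 build.

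Promoters from RefSeq (GRCm38.p6) were matched for 3 of the 10 members: Jup, Dsp and Pkp4, which has 2. Each window runs from 250 bases before a start to 50 after it. Jup and Dsp are shown because they carry the most reads among the members and were both higher in the CKO library. The windows were searched on both strands for GGAATG (the core bound by TEAD factors, the partners of Yap and Taz), ACCGGT (the grainyhead-like core) and CACCTG (the E-box of Zeb and Snail factors). Capitals mark matches.
Jup, upstream of the start (chr11:100397791-100398040, minus strand): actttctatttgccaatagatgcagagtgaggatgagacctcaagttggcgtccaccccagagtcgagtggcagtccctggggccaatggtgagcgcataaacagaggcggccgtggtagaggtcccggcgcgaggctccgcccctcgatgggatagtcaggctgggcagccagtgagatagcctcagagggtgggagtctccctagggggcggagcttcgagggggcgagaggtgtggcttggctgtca
Dsp, upstream and the first 30 bases (chr13:38151044-38151323, plus strand): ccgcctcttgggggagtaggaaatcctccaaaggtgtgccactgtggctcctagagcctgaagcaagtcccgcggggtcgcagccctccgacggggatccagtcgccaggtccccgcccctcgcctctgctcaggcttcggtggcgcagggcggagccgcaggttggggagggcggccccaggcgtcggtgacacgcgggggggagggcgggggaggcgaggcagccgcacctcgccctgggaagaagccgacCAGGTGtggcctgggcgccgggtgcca
Pkp4, after the second start (chr2:59161879-59161908, plus strand): tgtgctGGAATGcaaGGAATGcaccaggga
The Jup window held none of the motifs. The Dsp window held the E-box once, on the minus strand, from base 4 after the start. The window of the second Pkp4 start held GGAATG at bases 17 and 26 after that start and an E-box 47 bases before it, and the window of the first start held none. Both measured Pkp4 transcripts begin at the first start in GENCODE. Over all 32851 promoters of this length, 14.7% held GGAATG, 2.33% ACCGGT and 20.2% the E-box or its reverse complement, and a match is given as a description only.

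Most of the genes that build the desmosome in simple epithelium were modestly higher in the CKO library, and none of the 10 was lower beyond counting error. Dsc2 and Evpl differed most, with FPKM ratios of 2.81 and 2.47, followed by Pkp2 at 1.53. Ppl, Pkp4 and Jup lay together at 1.32, and Dsp at 1.20. Dsg2 (1.01) and Pkp3 (1.02) were nearly level, and Pkp1 was close to absent. For 7 members the 95% counting interval of the ratio lay above 1, and for 3 it included 1. Over all 9945 genes that reached FPKM of 1 in either library, the interval lay above 1 for 29.7% and below 1 for 12.3%. More reads make it easier for an interval to leave out 1, and the members are longer transcripts (median 4761 bases against 2733). The members and all genes therefore differ in counting power. The intervals reflect counting alone and leave out variation among animals, sorting and library making.

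Differences across genes are given as log2 of (FPKM + 1), CKO over control. A gene was included when its FPKM reached 1 in either library. Of the 10 members 9 entered, Pkp1 being too low, and Dsc2 entered only through the library in which it was higher. Any included gene under FPKM of 1 in 1 library entered in that way, which fixes its side of 0. A 1.5-fold difference on this scale was reached by 2 of the 9, Dsc2 and Evpl, both higher; over all 9945 genes 3.02% were that much higher. That count was 0 with a pseudocount of 5, and 1 (Evpl) once a trend with transcript length was removed. None of the 9 was 1.5-fold lower, against 2.59% of all genes. All 9 lay above 0, as did 63.2% of all genes. Their median log2 difference was 0.37, beside 0.07 over all genes. In the order of log2 differences among the 9945 genes, from the highest down, Evpl held place 108, Dsc2 202 and Pkp2 342.

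**Figure D1:**
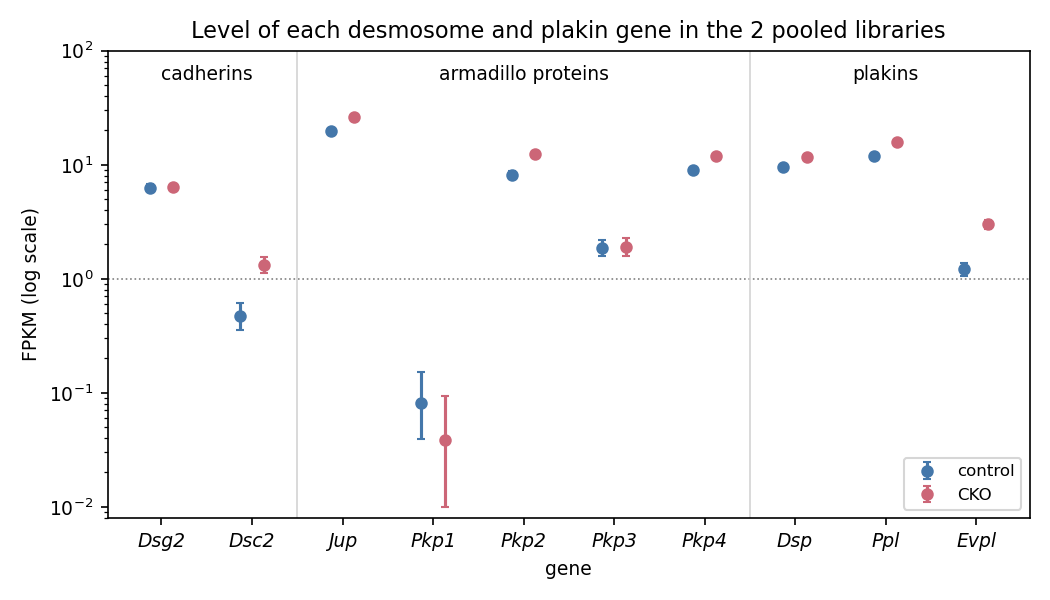
FPKM (log axis) of the 10 genes, grouped by protein family, in the control library (blue) and the CKO library (red); bars are 95% counting intervals from approximate reads, and the dotted line marks FPKM of 1. Jup is the highest member in both libraries (19.9 and 26.2) and Pkp1 the lowest. Dsc2 and Evpl show the widest gaps between the libraries, and the intervals of Dsg2, Pkp3 and Pkp1 overlap.

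**Figure D2:**
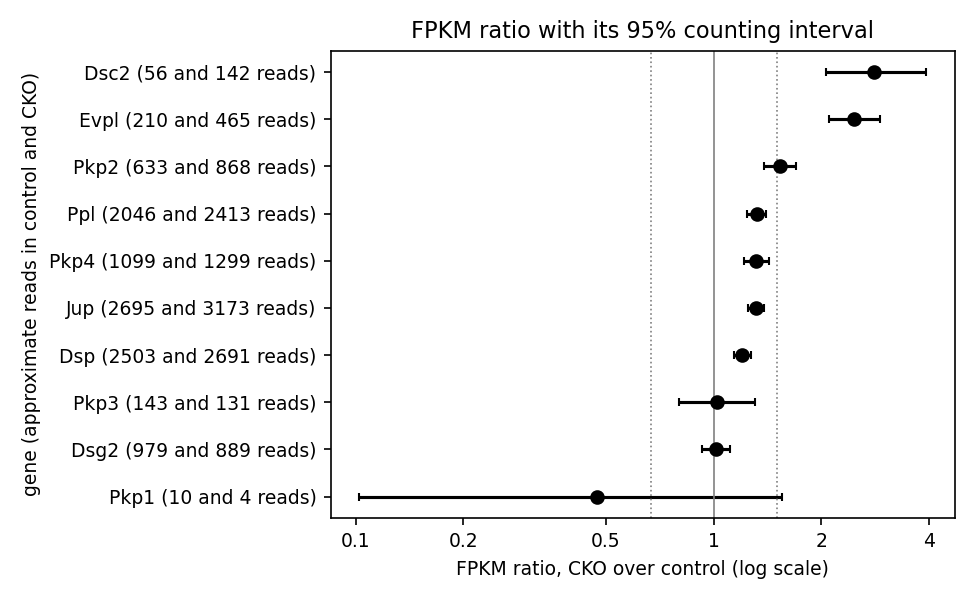
FPKM ratio of each gene, CKO library over control (log axis), with its 95% counting interval; the solid line marks 1 and the dotted lines 1.5-fold in either direction. The intervals of Dsg2, Pkp3 and Pkp1 include 1, and the other 7 lie above it.

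The desmosomal cadherins were uneven. Dsg2 (chr18:20716617-20763027, mm9), the desmoglein found in nearly all desmosome-bearing tissues, stood at FPKM of 6.31 in control and 6.41 in CKO. Its ratio of 1.01 had an interval of 0.926 to 1.11. Dsc2 (chr18:20189299-20218006), its usual desmocollin partner, stood at 0.472 and 1.33, a ratio of 2.81 (2.07 to 3.93). Dsc2 rested on about 56 and 142 reads, and Dsg2 on 979 and 889. FPKM is scaled by length, so levels of different genes can be set beside each other. Per length Dsg2 exceeded Dsc2 13.4-fold in control and 4.83-fold in CKO. Dsc2 thus made up 6.95% and 17.2% of the summed FPKM of these cadherins.

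The cadherins of stratified epithelium were at or near 0. Dsg1a, Dsg1b, Dsg1c, Dsg4 and Dsc1 were listed at 0 in both libraries, all with status OK; a listed 0 need not mean no expression. Dsg3, the desmoglein of basal layers, had FPKM of 0.00244 and 0.0277, at most about 3 reads. Dsc3, a desmocollin of basal cells, had 0.0809 and 0.0145, about 12 and 2 reads, with a ratio of 0.180 (0.0203 to 0.837). Cdsn, a glue protein of skin desmosomes, rested on about 1 read in each. Of the 9 other desmosomal genes listed, only Perp reached FPKM of 1. Perp, a tetraspan membrane protein of desmosomes and a p53 and p63 target, had 14.0 and 9.91, a ratio of 0.706 (0.627 to 0.795), opposite in direction to the 7 members above 1.

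Plakoglobin was the highest member. Jup (chr11:100230170-100259104), an armadillo protein that serves both desmosomes and adherens junctions, stood at FPKM of 19.9 in control and 26.2 in CKO. The ratio was 1.32 (1.25 to 1.39), on about 2695 and 3173 reads. It stood above 91.4% and 93.1% of the genes that entered. Its close relative Ctnnb1, the beta-catenin gene, had FPKM of 57.4 and 63.9, which was 2.89 and 2.44 times the level of Jup.

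Among the plakophilins, Pkp2 and Pkp4 were abundant and higher in the CKO library, Pkp3 was low and level, and Pkp1 was barely detected. Pkp2 (chr16:16213438-16272805), the plakophilin of simple epithelia and heart, was at FPKM of 8.09 and 12.4, a ratio of 1.53 (1.38 to 1.70). Its log2 difference with the pseudocount was 0.56, just short of 1.5-fold. Pkp3 (chr7:148264128-148276409), found in most epithelia, had 1.86 and 1.90, a ratio of 1.02 (0.802 to 1.31). Pkp1 (chr1:137767972-137815601), the plakophilin of the upper layers of stratified epithelium, had 0.0811 and 0.0382, about 10 and 4 reads. Its ratio of 0.471 had an interval from 0.102 to 1.55, so a difference was not detectable at this depth.

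Pkp4 (chr2:58998907-59193262), also called p0071, is a p120-catenin relative seen at both desmosomes and adherens junctions. Summed over its 2 transcripts it came to FPKM of 9.01 and 11.9, a ratio of 1.32 (1.22 to 1.43). More of this difference than not lay in the transcript with the extra exon shown above. That transcript, NM_026361, was at FPKM of 1.37 and 3.17, with a ratio of 2.32 (1.92 to 2.79). The shorter one, NM_175464, had 7.64 and 8.69, a ratio of 1.14 (1.04 to 1.25). The longer transcript therefore carried 15.2% of Pkp4 in control and 26.7% in CKO. The transcripts differ inside the gene mainly by those 129 bases, and all other reads were shared out between them by Cufflinks; the intervals do not cover that step. Pkp3 also has 2 listed transcripts, but 1 of them, NM_001162924, was under 0.001% of its FPKM in both libraries.

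**Figure D3:**
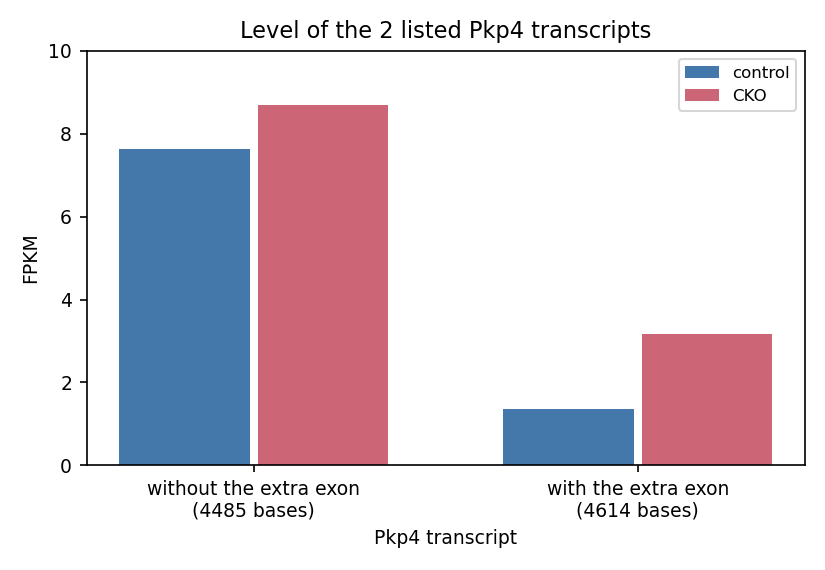
FPKM of the 2 listed Pkp4 transcripts in the control library (blue) and the CKO library (red), 1 value per library and no error bars. The transcript with the extra exon stands at 1.37 and 3.17, and the one without it at 7.64 and 8.69.

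Together the 4 plakophilins summed to FPKM of 19.0 and 26.2. Pkp2 made up 42.5% and 47.3% of the sum, Pkp4 47.3% and 45.3%, Pkp3 9.78% and 7.26%, and Pkp1 under 1% in each. Pkp4 was ahead of Pkp2 in the control library and behind it in the other, but the counting intervals of the 2 genes overlapped in both, so their order is not resolved.

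The 3 plakins among the members were all higher, Evpl by far the most. Dsp (chr13:38243163-38290446), the obligate link from plaque to keratin, was at FPKM of 9.64 and 11.6, a ratio of 1.20 (1.14 to 1.27). Ppl (chr16:5086384-5132574) had 12.0 and 15.9, a ratio of 1.32 (1.24 to 1.40). Evpl (chr11:116081873-116099405), which can pair with Ppl, had 1.21 and 3.003, a ratio of 2.47 (2.10 to 2.93) on about 210 and 465 reads. Ppl exceeded Evpl 9.92-fold in control and 5.29-fold in CKO. Evpl made up 5.30% and 9.86% of the summed FPKM of these 3 plakins, while Ppl held 52.6% and 52.1%.

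**Figure D4:**
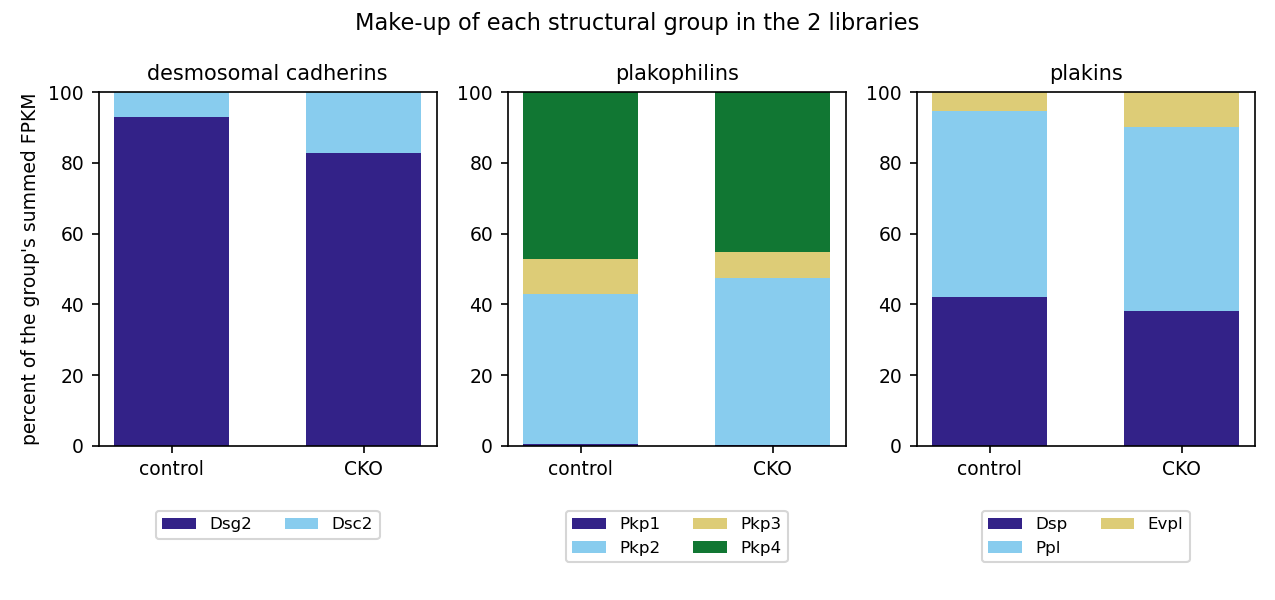
Percent of the summed FPKM carried by each gene within the desmosomal cadherins, the plakophilins and the plakins, for the control library and the CKO library. The share of Dsc2 goes from 6.95% to 17.2% and that of Evpl from 5.30% to 9.86%, while the plakophilin shares change by a few percentage points.

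In the control library the order of levels was Jup, Ppl, Dsp, Pkp4, Pkp2, Dsg2, Pkp3, Evpl, Dsc2 and Pkp1. Dsp and Pkp4, and Pkp4 and Pkp2, did not differ beyond their counting intervals, and the other neighbours did. In the CKO library the order was Jup, Ppl, Pkp2, Pkp4, Dsp, Dsg2, Evpl, Pkp3, Dsc2 and Pkp1, with Pkp2, Pkp4 and Dsp unresolved between neighbours. Evpl passed Pkp3: it lay below it in the control library and above it in the other, with intervals apart in both. The likeness of other genes to these patterns was not computed, because 2 libraries give only 1 ratio per gene.

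Genes around the desmosome lay on both sides of 0. Of 4 other plakins, none was 1.5-fold apart. Macf1, which crosslinks actin and microtubules, was at FPKM of 8.62 and 11.2, and Plec, the keratin and integrin linker plectin, at 4.74 and 5.91. Dst, the dystonin gene, was at 8.05 and 7.88, and Eppk1, a plakin of keratin networks, at 3.55 and 2.68, a ratio of 0.754 (0.688 to 0.824). Of 8 linkers and regulators 7 were measured and 0 were 1.5-fold apart. The largest difference was that of Grhl1, a grainyhead-like factor known to activate desmosomal cadherin genes, at 2.67 and 3.99, a ratio of 1.49 (1.27 to 1.77). Grhl2 had 8.48 in both. Kazn, listed as 9030409G11Rik, encodes the periplakin partner kazrin and had 1.26 and 1.61.

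The keratins that desmosomes hold split by gene. Krt7 was 1.5-fold higher on the log2 (FPKM + 1) scale, at FPKM of 13.8 and 21.9, a ratio of 1.59 (1.43 to 1.77). Krt19, the most abundant, had 108 and 135. The partners Krt8 (33.7 and 29.7) and Krt18 (67.9 and 56.7) were lower, with ratios of 0.881 and 0.835. Among stratified keratins Krt5 was at 10.7 and 2.998, Krt15 at 7.56 and 2.59 and Krt4 at 0.345 and 1.18, so 2 of the 4 measured were 1.5-fold lower and 1 higher. Krt4 entered only through CKO, and Krt17 (1.02 and 0.432) only through control, so the filter fixed their sides of 0. Krt6a and Krt6b were listed at 0 in both libraries.

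Other junction genes were compared from lists. Of 10 measured adherens junction genes 8 lay above 0, with a median log2 difference of 0.19. Only Pvrl3, the gene of nectin-3, was 1.5-fold higher, at FPKM of 14.4 and 22.3. Cdh1, the E-cadherin gene, was at 91.7 and 96.5, 14.5-fold and 15.1-fold above Dsg2. Of 5 measured hemidesmosome genes, which tie keratin to the basement membrane, 3 lay above 0 with a median of 0.28 and none was 1.5-fold apart. Among them the laminin genes Lama3 (2.12 and 2.97) and Lamb3 (4.70 and 6.22) were higher. Cd151, a tetraspanin gene and the highest of the list, was at 12.3 and 15.1. The integrin gene Itgb4 (2.71 and 2.27) was lower. For Itga6 (3.55 and 3.34) the interval of the ratio, 0.812 to 1.09, included 1.

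Evpl and Ppl are also cornified envelope precursors, and 8 of 10 genes on a list of that structure were found. Tgm1, the transglutaminase that crosslinks the envelope, was at FPKM of 1.04 and 2.76, a ratio of 2.66 (2.09 to 3.62), near that of Evpl. Sprr1a, a small proline-rich precursor, had 6.03 and 7.31 with an interval of the ratio from 0.948 to 1.55. Ivl, the involucrin gene, was under FPKM of 1, on about 6 and 13 reads, and Sprr1b and Sprr3 were listed at 0. Lor was also under FPKM of 1 and went the other way, on about 15 and 8 reads. The intervals of both the Ivl and the Lor ratio included 1.

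**Figure D5:**
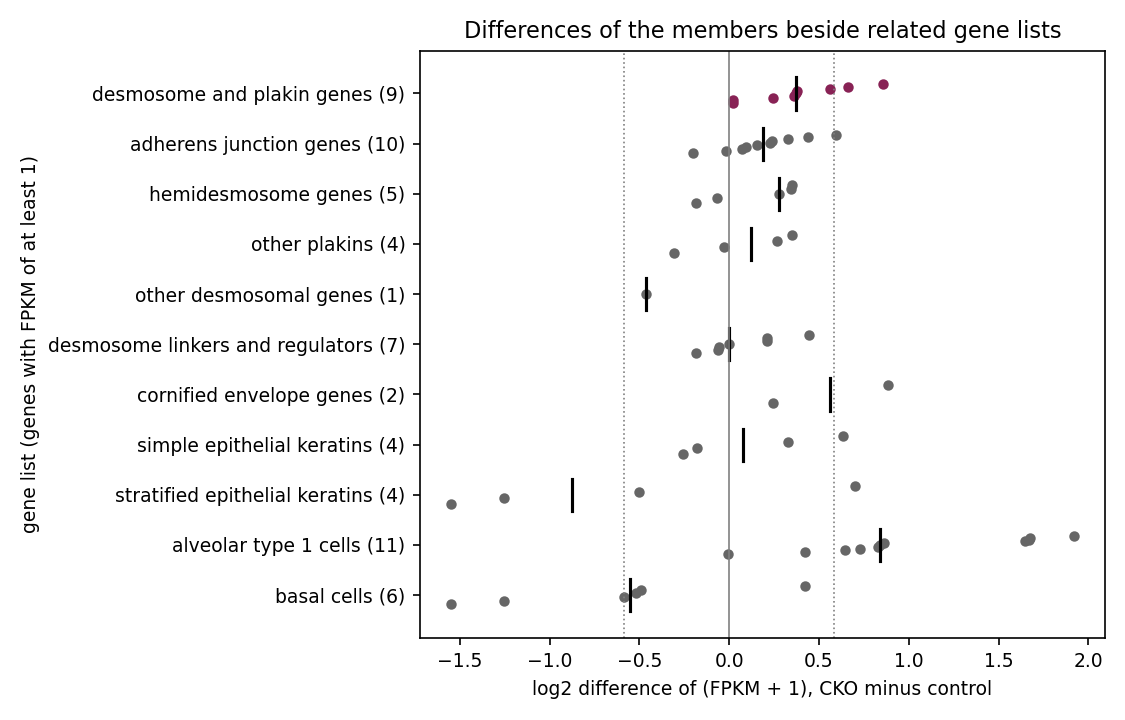
Log2 difference of (FPKM + 1), CKO library minus control, for each gene with FPKM of at least 1 in the 9 members (purple) and in 10 other lists (grey); the number of genes is in brackets, thick strokes are medians, and dotted lines mark 1.5-fold. The members have a median of 0.37, adherens junction genes 0.19, and alveolar type 1 cell markers 0.84.

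Markers of the cells the sort could hold also moved between these libraries. Of 8 club cell markers 6 were measured, and 5 of these lay below 0 with a median log2 difference of -0.89. Scgb3a1 was at 477 and 121, Scgb3a2 at 691 and 256 and Chad at 64.6 and 18.5, all 1.5-fold lower; Cckar was at 57.0 and 47.6, and Cyp2f2 alone of the 6 lay above 0. The club cell sum, without Scgb1a1, was 6578 in control and 6212 in CKO. All 9 alveolar type 2 cell markers lay above 0 with a median of 0.39. Both this and the ciliated cell median of 0.36 given below were near the 0.37 of the members. Of the type 2 cell markers only Lpcat1 was 1.5-fold higher, at 93.7 and 149, and the sum was 11300 and 14138. Of 12 alveolar type 1 cell markers 11 were measured and 9 were 1.5-fold higher (Ager, Hopx, Aqp5, Clic5, Akap5, Emp2, Rtkn2, Vegfa and Gprc5a); their FPKM summed to 191 and 428, and none was at 0. All 7 measured of 9 ciliated cell markers lay above 0 with a median of 0.36, of which Tppp3 and Ak7 were 1.5-fold higher. The sums were 33.7 and 53.3. Dnali1, Ak7, Ccdc39 and Cdhr3 were under FPKM of 1 in control and entered only through CKO, so they could only lie above 0. The same holds for Rtkn2 among the type 1 cell markers.

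Of 8 basal cell markers 6 were measured and Krt5, Krt15 and Aqp3 were 1.5-fold lower, with sums of 26.9 and 11.7; Pdpn lay above 0, and Krt14 was at 0.000293 and 0.0359. The 4 measured mucous cell markers, Muc5b, Agr2, Clca3 and Tff2, were all 1.5-fold lower. Agr2 (2.73 and 0.535) and Tff2 (1.80 and 0) entered only through control, so they could only lie below 0. The 7 listed mucous cell markers summed to 31.4 and 10.1, with Tff1 at 0 in both libraries. Among leukocyte markers Tyrobp, Fcer1g, Laptm5 and Coro1a were 1.5-fold lower, whereas Csf1r was at 0.984 and 1.80 and Cd79a at 0.527 and 1.06. Of these only Fcer1g (4.45 and 1.36) reached FPKM of 1 in both libraries. Tyrobp, Laptm5 and Coro1a entered only through control, and Csf1r and Cd79a only through CKO, so the filter fixed their sides of 0. The 8 leukocyte markers summed to 13.4 and 6.46. Dcn and Mfap4 were 1.5-fold lower among 8 mesenchymal markers (sums 19.4 and 8.41) and Kdr among 7 endothelial markers (11.7 and 6.84). Of 4 mesothelial markers Upk3b was lower, at 3.47 and 0.575, and Msln was at 2.58 and 3.50, with sums of 7.04 and 4.37. Mfap4 (3.25 and 0.973) and Upk3b entered only through control, so they too could only lie below 0. The 7 cardiac muscle markers summed to 1.84 and 2.30, with Myh6 the highest at 0.934 and 1.25. The part of any of these cells in the differences of the members was not tested, and in sorted pools more cells of a type and more RNA per cell cannot be told apart.

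The members are long transcripts, from 2839 to 9592 bases with a median of 4761, whereas the genes that entered had a median of 2733. Across those 9945 genes, which are not independent, the log2 difference went up weakly with length (Spearman rho 0.17). The trend came to 0.05 to 0.13 at the lengths of the 9 members. With it removed, Evpl was at 0.74, Dsc2 at 0.56, Pkp2 at 0.50, Jup at 0.29, Pkp4 at 0.27, Ppl at 0.26 and Dsp at 0.11. Dsg2 came to -0.09 and Pkp3 to -0.03, so 7 of the 9 remained above 0. Dsg2 and Pkp3 also fell below a ratio of 1 under conversion to TPM (0.980 and 0.985) and when the median of all genes was set to 0 (0.967 and 0.973), and all of these ratios lay inside their counting intervals.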

How the data were processed

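Per the submitters' processing notes, the authors used TopHat and Cufflinks with the mm9 build; not given in the sources used here: versions, settings, strandedness. Each library has 1 deposited table of 28107 RefSeq transcripts with FPKM, coverage (a signal, the mean read depth over the transcript) and length, per the file headers. All 12 transcripts of the members had status OK in both. FPKM was summed per gene symbol. Starts were raised by 1, since 99.7% of 643 microRNA entries span their length when starts count from 0.

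Read counts were not used; approximate reads are coverage times length over 47.1 bases, the median of values from 25 to 75 bases among genes with 1 transcript, so their size is an assumption. Rounded, and scaled by a depth ratio of 0.895, they gave exact 95% intervals (Clopper-Pearson for ratios, Poisson for levels). The code of the ratio interval was tested on simulated Poisson counts. Such counts cannot test the assumed read size or the sharing of reads between transcripts. The intervals cover counting error only, and amplified reads are not independent molecules. No overlapping gene was listed at a member's locus.

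All 10 members are named, and of each list the measured genes are counted and those past 1.5-fold or highest in the list named; other list genes were named after their values were seen. A gene of the hemidesmosome list is not reported here. Members and lists were chosen with earlier results of these data known. Alternatives were other pseudocounts and filters, TPM, centring, the highest transcript, status and a length correction. Python 3.11.15, pandas 2.3.3 and scipy 1.17.1 were used.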

Additional observations from a re-analysis of the deposited data

How the results depend on the processing

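No paired analysis was possible because there is 1 pooled library per genotype, so no library could be left out either. The count of 2 members 1.5-fold higher became 0 with a pseudocount of 5, 0 with FPKM of at least 5, where neither Dsc2 nor Evpl enters, and 1 (Evpl) with the length trend removed; it was 3 with a pseudocount of 0.1 and 2 under the other 5 alternatives. No alternative gave a member 1.5-fold lower. The median log2 difference of the members fell from 0.37 to 0.27 with a pseudocount of 5 and to 0.27 with the length trend removed, and was between 0.30 and 0.39 otherwise. The number of all genes 1.5-fold apart, 558, was 1090 with a pseudocount of 0.1, 152 with a pseudocount of 5, 265 with FPKM of at least 5 and 2192 after conversion to TPM, where 14070 genes enter in place of 9945. Of 50 ratios recomputed for single members, 44 stayed inside their counting interval and 6 left it, none of them turning to the other side of 1. Outside were Dsc2 (1.58) and Evpl (1.81) with a pseudocount of 1, Pkp4 (1.14) by its higher transcript alone, and Dsp (1.10), Jup (1.23) and Ppl (1.22) with the length trend removed. Depth limits Pkp1, Dsg3 and Dsc3, each on 12 reads or fewer per library.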
